A study of Mus musculus with 8 samples.

Results

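The 4 Hox gene clusters held few called H3K4me3 peaks in these embryonic brain libraries. Of 74232 peaks in the 4 deposited lists, 13 overlapped a Hox cluster, 7 in HoxA and 6 in HoxD, and 0 overlapped HoxB or HoxC in any library. The clusters were taken as fixed windows on mouse genome build mm9, on chromosome 6 from 52100000 to 52220000 (HoxA), chromosome 11 from 96050000 to 96235000 (HoxB), chromosome 15 from 102745000 to 102875000 (HoxC) and chromosome 2 from 74495000 to 74610000 (HoxD). Every peak that overlapped a window by at least 1 bp was a member, which gave 2 and 4 peaks in wild type (WT) replicates 1 and 2, and 4 and 3 in double knockout (dKO) replicates 1 and 2.

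Trimethylated lysine 4 of histone H3 was profiled by chromatin immunoprecipitation and sequencing in brains of mouse embryos at E12.5, of mixed strain background. The WT group (n = 2 libraries) had no Cre, and the dKO group (n = 2) lacked the Hippo kinases Lats1 and Lats2 through Nestin-Cre, which acts in neural progenitors and their descendants. Cre was present in dKO only, so its effect and that of the deletion cannot be told apart. Each list gives peak positions and a score by the authors on a scale that the labels do not name, and the list lengths were 19486 and 19331 for WT and 18048 and 17367 for dKO. Read depth is unknown, and a place without a peak is one where none passed the authors' threshold. A mark carried by few cells of the brain and a weak mark in many cells cannot be told apart in such bulk chromatin.

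Hox genes encode homeodomain transcription factors that give cells their position along the head-to-tail axis. Within a cluster they lie in the order in which they are used: genes at the 3′ end act early and furthest forward, up to the hindbrain, and genes at the 5′ end act late in the trunk, tail and limbs. H3K4me3 sits at active promoters and at many CG-rich promoters that are held silent, and forebrain and midbrain tissue keeps the Hox clusters silent under Polycomb repression. In the RefSeq order the listed genes run from Hoxa2 to Hoxa13 (10 genes), Hoxb1 to Hoxb13 (10), Hoxc4 to Hoxc13 (9) and Hoxd1 to Hoxd13 (9), from the 3′ to the 5′ end. That order was read from build GRCm38.p6 and the same orientation was assumed on mm9. The builds differ, so no peak was assigned to a single gene, and marker genes of brain tissue and the loci of Lats1 and Lats2 were not examined. The labels give the tissue as brain and do not say whether the hindbrain was part of it, so a cluster without a peak cannot be read as the state of hindbrain cells.

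Promoter sequences show the DNA of the clusters. RefSeq (GRCm38.p6) entries matched 22 of the 38 listed genes, with 24 promoters. All 4 matched promoters of HoxB and HoxC, the clusters with no peak, are printed with those of the genes at the ends of HoxD, Hoxd1 at the 3′ end and Hoxd13 at the 5′ end. The HoxB and HoxC promoters lay without a called peak, since their windows had none. The last 41.3 kb of the HoxD window, at the end of Hoxd13, had no called peak either. Positions of the HoxD promoters on mm9 were not available, so whether a peak lies at Hoxd1 or Hoxd13 was not determined directly. Hoxb1 is a determinant of hindbrain segment identity, Hoxb4, Hoxb8 and Hoxc4 act in hindbrain, spinal cord or trunk patterning, and Hoxd13 patterns digits and the genital region. Each line gives the 250 bases before the annotated start, 5′ to 3′ on the strand of the gene (plus for all of them), with every CG dinucleotide in capitals.
Hoxb1: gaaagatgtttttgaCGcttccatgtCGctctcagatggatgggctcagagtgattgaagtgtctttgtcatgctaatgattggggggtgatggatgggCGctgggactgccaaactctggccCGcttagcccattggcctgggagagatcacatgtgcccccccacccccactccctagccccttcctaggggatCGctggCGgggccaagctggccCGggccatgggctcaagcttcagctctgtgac
Hoxb4: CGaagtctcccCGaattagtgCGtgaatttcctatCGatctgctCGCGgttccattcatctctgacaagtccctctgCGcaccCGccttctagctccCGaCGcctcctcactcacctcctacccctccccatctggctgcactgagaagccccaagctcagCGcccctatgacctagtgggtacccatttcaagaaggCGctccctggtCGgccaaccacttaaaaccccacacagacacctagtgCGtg
Hoxb8: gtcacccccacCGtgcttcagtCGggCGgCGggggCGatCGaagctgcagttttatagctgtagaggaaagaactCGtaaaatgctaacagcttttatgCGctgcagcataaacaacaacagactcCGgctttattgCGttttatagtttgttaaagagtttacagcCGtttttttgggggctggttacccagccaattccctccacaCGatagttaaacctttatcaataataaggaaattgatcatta
Hoxc4: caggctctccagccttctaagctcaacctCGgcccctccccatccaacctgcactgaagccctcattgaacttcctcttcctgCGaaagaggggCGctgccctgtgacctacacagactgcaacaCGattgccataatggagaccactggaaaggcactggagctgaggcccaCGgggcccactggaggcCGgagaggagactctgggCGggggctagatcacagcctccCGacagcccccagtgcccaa
Hoxd1: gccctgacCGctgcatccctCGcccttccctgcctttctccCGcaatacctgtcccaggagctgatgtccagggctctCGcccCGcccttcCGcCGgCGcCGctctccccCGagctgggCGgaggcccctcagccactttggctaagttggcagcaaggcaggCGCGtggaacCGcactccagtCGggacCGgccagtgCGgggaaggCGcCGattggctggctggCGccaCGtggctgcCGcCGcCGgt
Hoxd13: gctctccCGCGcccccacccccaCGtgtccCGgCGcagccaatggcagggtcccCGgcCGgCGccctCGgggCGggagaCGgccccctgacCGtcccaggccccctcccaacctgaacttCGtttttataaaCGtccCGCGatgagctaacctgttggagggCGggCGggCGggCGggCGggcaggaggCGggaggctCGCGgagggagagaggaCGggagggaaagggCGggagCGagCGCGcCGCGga
The dinucleotide CG, which reads the same on both strands, occurred 7 times before Hoxb1, 14 times before Hoxb4, 12 times before Hoxb8, 8 times before Hoxc4, 24 times before Hoxd1 and 31 times before Hoxd13. As many or more were found in 46.3%, 29.4%, 33.5%, 43%, 12% and 5.19% of all 32851 RefSeq promoters, in that order. Hoxd1 and Hoxd13 had the highest counts in HoxD, where the other promoters ran from 2 to 20. Over the 24 Hox promoters the count ran from 2 (an entry of Hoxd11) to 35 (Hoxa13), and 19 of the 24 lay above 6, the median of all promoters. Their median share of G and C was 58.6%, beside 52.4% over all promoters.

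**Figure D1:**
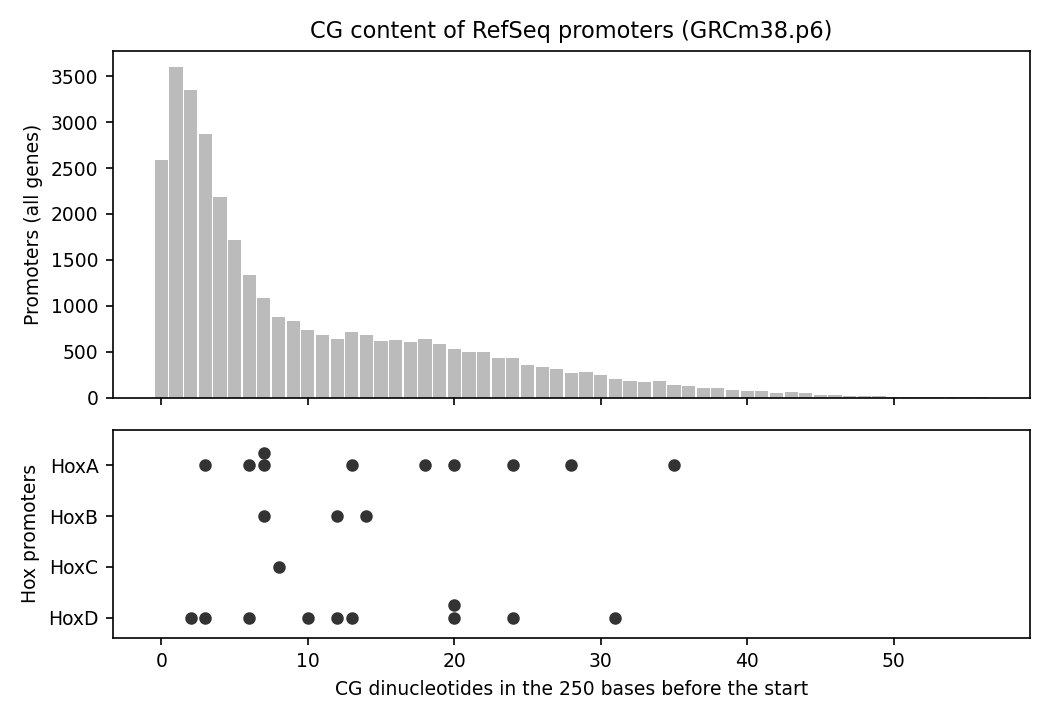
CG dinucleotides in the 250 bases before the annotated start (x axis, count), for all 32851 RefSeq promoters (top, number of promoters) and for the 24 promoters of listed Hox genes (bottom, 1 point each, by cluster; stacked points have equal counts). The Hox promoters run from 2 to 35, with 19 of 24 above the overall median of 6.

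HoxB and HoxC lay inside long stretches without a peak in any library. The stretch over HoxB, where the hindbrain genes Hoxb1 and Hoxb2 mark the 3′ end, ran for 651.7 kb on chromosome 11 from 95986070 to 96637787. It was longer than 96.1% of the 19693 gaps between neighbouring marked regions genome-wide, whose median was 35.7 kb. The stretch over HoxC, whose genes start at Hoxc4 and act mostly in the trunk, ran for 354.4 kb on chromosome 15 from 102578053 to 102932417 and was longer than 92% of gaps. These ranks follow in part from window length. A gap over an empty window is at least as long as the window, 185 kb for HoxB and 130 kb for HoxC. The gap of 144.9 kb at the 3′ end of HoxA was already longer than 80.6% of gaps. Empty windows were also common. Of consecutive tiles of the length of HoxB, 50.7% had no peak in any of the 4 libraries, and of tiles of the length of HoxC 57.9% had none. HoxA and HoxD stood above the median tile of their length, which had 0 bp under peaks in every library: 61.5% to 71.6% of tiles had as little mark as HoxA or less, and 65.9% to 67.9% as little as HoxD or less. Such tiles include gene-free sequence, while the 4 windows hold 9 or 10 of the listed genes each. Across the genome the lists held 0.89 and 0.883 peaks per protein-coding gene in WT and 0.824 and 0.793 in dKO, against 0.0526, 0.105, 0.105 and 0.0789 peaks per listed Hox gene in WT replicates 1 and 2 and dKO replicates 1 and 2. The genome values divide all peaks, wherever they lie, by 21900 coding genes, while the Hox values count only peaks inside the windows. The measures are thus only roughly alike.

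The same libraries had peaks beside the empty clusters. Within 200 kb of the 5′ end of HoxB, on the side of Hoxb13, each WT library had 9 peaks and the dKO libraries had 5 and 8. The highest of them ranked at percentiles 82.8, 93.7, 81.1 and 91.2 of their own lists. On the side of Hoxb1 no library had a peak for 403 kb. Within 200 kb of the 3′ end of HoxC, on the side of Hoxc4, the WT libraries had 9 and 7 peaks and the dKO libraries 6 and 8, the highest at percentiles 73.2, 67, 67.6 and 81.8. Beyond the 5′ end of HoxC, past Hoxc13, the nearest peak was 167 kb away in every library. In each library of both genotypes, HoxB and HoxC thus had 0 bp under peaks, with marked regions at some distance.

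**Figure D2:**
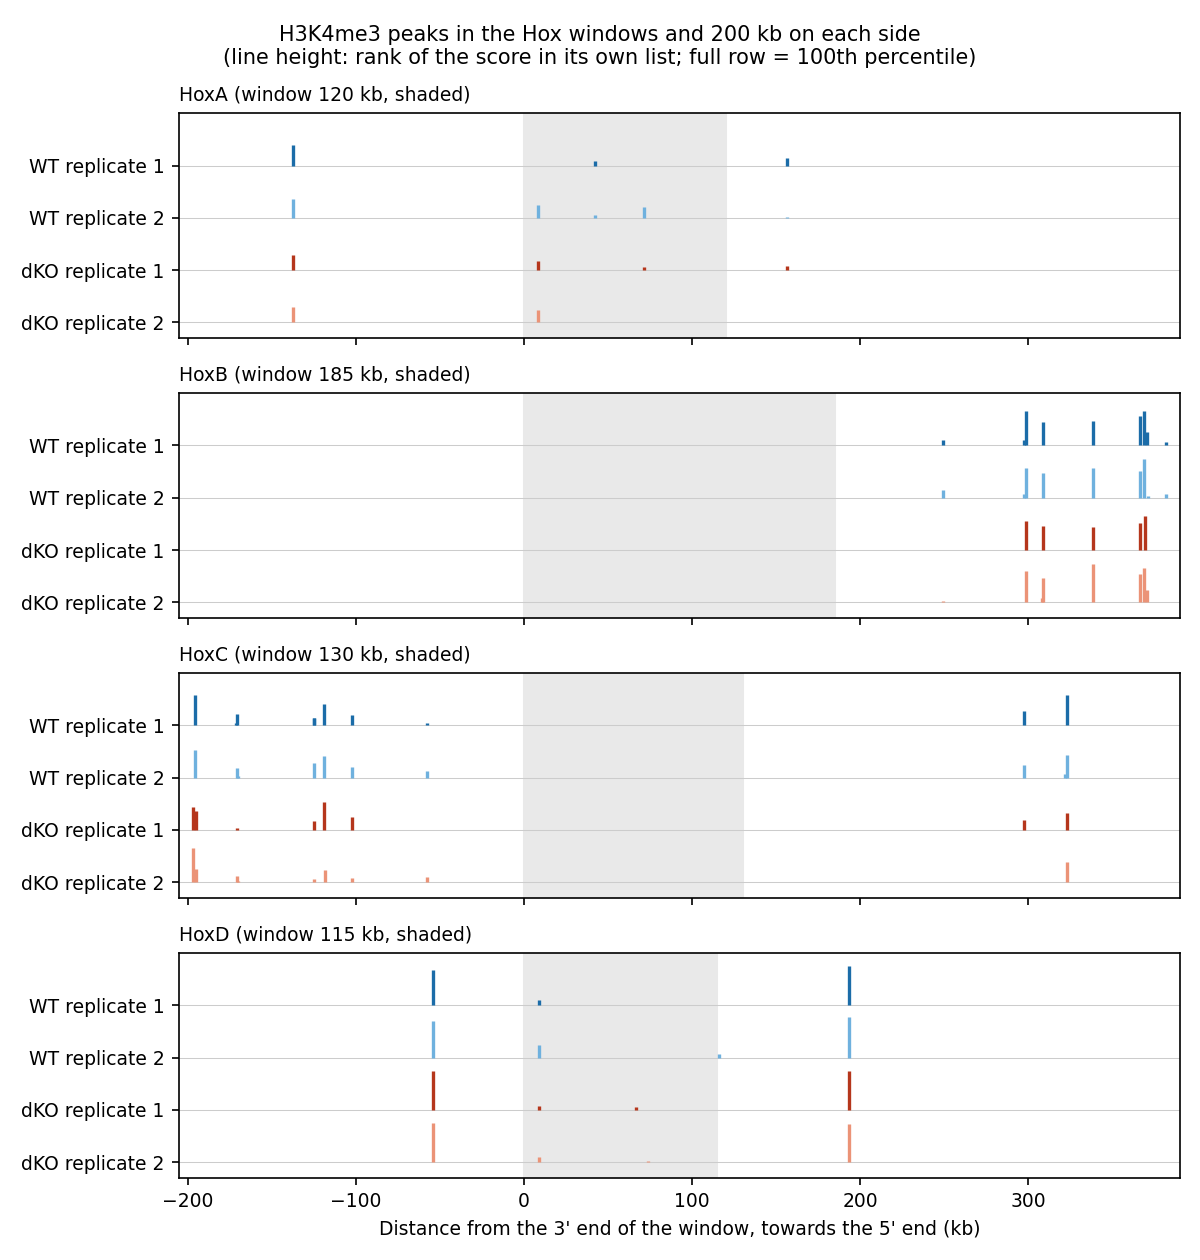
Peaks along each Hox window (shaded) and 200 kb on each side, plotted by distance from the 3′ end of the window in kb, with 1 row per library. Line height is the percentile of the peak's score in its own list. HoxB and HoxC have no line inside the window, and all lines inside HoxD are shorter than the tallest line on either side of it. Lines inside HoxA reach percentile 30.8, those beside it 49.9 on the 3′ side and 17.2 on the 5′ side.

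In HoxA the mark was called at 3 places, on chromosome 6. The first, from 52108214 to 52108843, had its middle 8.53 kb from the 3′ end of the window, on the side of Hoxa2, a gene of hindbrain and cranial neural crest identity. It had no peak in WT replicate 1 and covered 585 bp in WT replicate 2, 451 bp in dKO replicate 1 and 299 bp in dKO replicate 2. The WT libraries therefore lay on both sides of the dKO libraries. The second, from 52141936 to 52142318, lay 42.1 kb from the 3′ end and covered 238 and 383 bp in the WT libraries, with no peak in either dKO library. The third, from 52171449 to 52171751, lay 71.6 kb from the 3′ end and covered 279 bp in WT replicate 2 and 229 bp in dKO replicate 1, with none in the other library of each genotype. No peak was called beyond it, over the last 48.2 kb towards Hoxa13, a gene of the limb and genital region.

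The HoxA region at 42.1 kb was the only Hox region with a peak in both libraries of a genotype and in neither of the other. Over the genome 755 of 19714 regions (3.83%) had a peak in both WT libraries only and 27 (0.137%) in both dKO libraries only. Among the 6 Hox regions the counts were 1 and 0. With 6 regions and the libraries of dKO holding fewer peaks in all, nothing is read from the 1 region. Its WT peaks ranked at percentiles 11.5 and 7.89 of their lists, and when each list was limited to its 17367 highest-scoring peaks the region no longer counted, as 1 of the WT peaks dropped out.

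In HoxD the mark was called at 3 places on chromosome 2, and 1 of them was shared by all libraries. That region, from 74600783 to 74601549, had its middle 8.83 kb from the 3′ end of the window, on the side of Hoxd1. It was the only Hox region with a peak in all 4 libraries (1 of 6, against 75.8% of regions genome-wide). Its width was 609 and 767 bp for the WT libraries and 487 and 381 bp for the dKO libraries. Both dKO widths lay below both WT widths, which was so for 39.1% of the 14943 regions of this kind before, and 16.3% after, each library was centred on its median; the reverse order held for 4.17% before centring. The WT mean of 688 ± 112 bp stood against a dKO mean of 434 ± 75.0 bp (SD, n = 2 each). The centred log2 width change was -0.52 (SE 0.21), and it did not pass the threshold (limma, adjusted p = 0.636 over 14943 regions; unadjusted p = 0.0437). Over all these regions 0.00669% were called wider and 0% narrower in dKO, 1146 had an unadjusted p under 0.05, and 4.24% had a change as low as this one.

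The other HoxD places were each marked in 1 dKO library. A peak of 216 bp in dKO replicate 1, from 74543300 to 74543515, lay 66.6 kb from the 3′ end. A peak of 247 bp in dKO replicate 2, from 74536325 to 74536571, lay 73.6 kb from it. They did not overlap, so the dKO libraries share no peak in this stretch. No peak was called in the last 41.3 kb of the window towards Hoxd13. Just outside the window at that end, 0.713 kb beyond it, WT replicate 2 had a peak of 230 bp, from 74494057 to 74494286, at percentile 8.54 of its list.

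**Figure D3:**
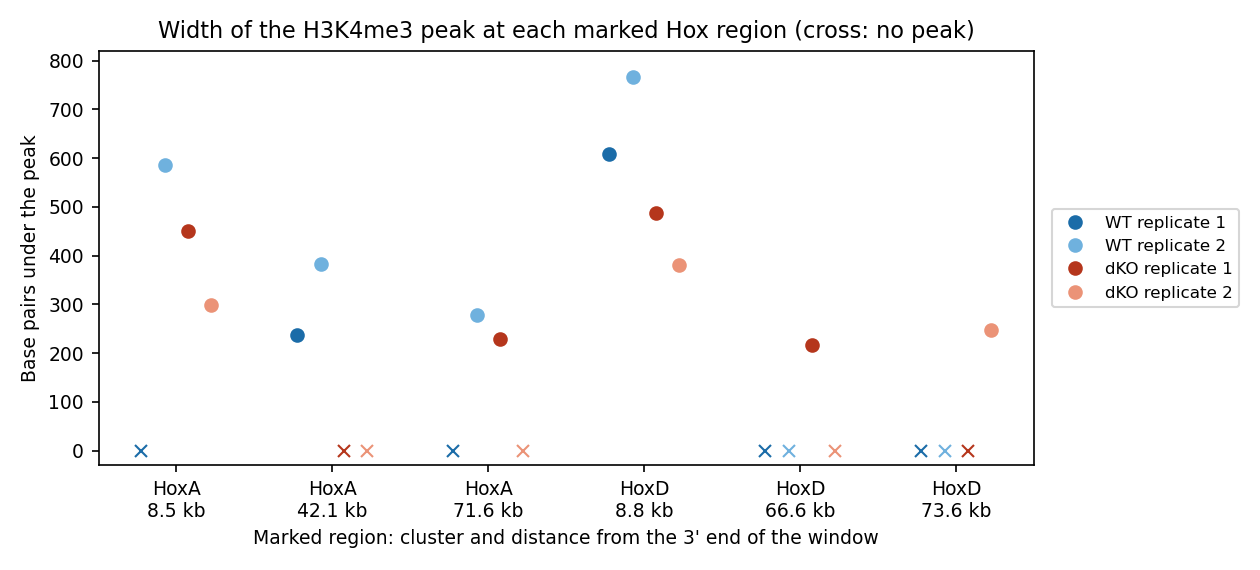
Base pairs under the peak (y axis) at each of the 6 marked Hox regions (x axis, cluster and distance from the 3′ end of the window), 1 symbol per library, with a cross where no peak was called. Only the HoxD region at 8.8 kb has a point for all 4 libraries, from 381 to 767 bp.

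Along both marked clusters, the region found in the most libraries was the one nearest the 3′ end. It lay 7.11% of the way along HoxA (3 libraries) and 7.68% of the way along HoxD (4 libraries). The regions further along were marked in 2 libraries at 35.1% and 59.7% of HoxA and in 1 library at 57.9% and 64% of HoxD. In HoxD the share of marked base pairs between the 3′ end and the middle of the window was 100% in both WT libraries and 69.3% and 60.7% in the dKO libraries. The groups did not overlap (exact two-sided permutation p = 0.3333, the smallest that 2 against 2 libraries can give). The difference of -35.0 percentage points came from the 2 short dKO peaks described above, at percentiles 6.6 and 3.67 of their lists. Over the genome 11.1% of regions had a peak in 1 library only, as had 2 of the 6 Hox regions. Other windows were not compared in this way, so the separation is not read as particular to HoxD. In HoxA the share was 100% and 77.6% in WT and 66.3% and 100% in dKO, and the groups overlapped (exact permutation p = 1).

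With every peak counted, the amount of mark did not separate the genotypes. Of the 4 clusters together, 847 and 2014 bp were under peaks for the WT replicates, and 1383 and 927 bp for the dKO replicates. WT replicate 1 was the lowest and WT replicate 2 the highest of the 4. On average this was 1430.5 ± 825 bp for WT against 1155 ± 322 bp for dKO (SD, n = 2 per genotype), a difference of -275.5 bp that was smaller than the spread between the WT libraries (exact permutation p = 1). Its sign depended on 1 library, since without WT replicate 2 it was 308 bp. It also depended on short peaks. With those under 500 bp left out, 609 and 1352 bp remained for WT and 0 bp for both dKO libraries (difference -980.5 bp, exact permutation p = 0.3333). Every dKO peak in the clusters was shorter than that. Only 3 of the 13 Hox peaks were 500 bp or wider. The same cutoff was not compared over all regions, so the separation is not read as particular to the Hox clusters. As a share of all base pairs under peaks in a library, the Hox clusters held 0.00418% and 0.00941% for WT and 0.00716% and 0.00535% for dKO (exact permutation p = 1). HoxA alone had 238 and 1247 bp under peaks for WT against 680 and 299 bp for dKO, and HoxD had 609 and 767 bp against 703 and 628 bp (exact permutation p = 1 for each). The mark covered at most 1.04% of a window, in HoxA of WT replicate 2.

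The Hox peaks were narrow and low in rank. Their widths ran from 216 to 767 bp with a median of 381 bp, while the median peak of a list was 920 and 984 bp wide for WT, 960 and 888 bp for dKO. Their scores stood at percentiles 3.67 to 30.8 of their own lists, with a median of 11.5, so that all 13 were below the middle of their list. The highest were the peaks of WT replicate 2 nearest the 3′ ends, at percentile 30.8 in HoxA and 29.4 in HoxD. The shared HoxD region ranked lower in the other libraries, at 11.5 for WT replicate 1, and at 8.83 and 11.6 for dKO replicates 1 and 2. The 86 peaks within 200 kb of a window had a median width of 976.5 bp and a median percentile of 37.4, and 49 of them were below the middle of their list. The highest of those beside HoxD stood near the top of their lists. In the RefSeq order the coding neighbours there are Mtx2 (3′ side) and Evx2 (5′ side). No peak was assigned to either gene. The nearest peak at the 3′ side was 53.5 to 53.6 kb from the window, and it ranked at percentiles 84.6, 88.4, 93.2 and 92.9 in the order of the libraries. On the 5′ side the highest ranked at 94.9, 96.6, 93.8 and 90.1. It was 77.4 kb from the window in WT replicate 1 and 77.5 kb in both dKO libraries. In WT replicate 2 it ran from 74415909 to 74417552, and a peak at percentile 8.54 lay closer, at 0.713 kb. Beside HoxA the highest stood lower, at 49.9, 45.1, 37.4 and 37.4 on the 3′ side. On its 5′ side they stood at 17.2 and 1.6 for WT and 8.83 for dKO replicate 1, and dKO replicate 2 had no peak there.

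**Figure D4:**
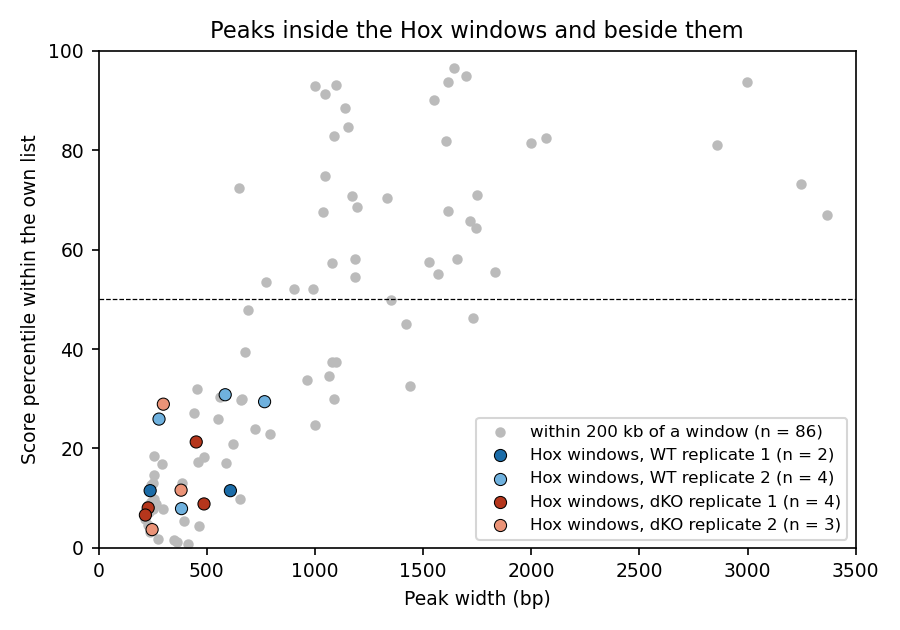
Score percentile within its own list (y axis) against peak width in bp (x axis), for the 13 peaks inside the Hox windows (coloured by library) and the 86 peaks within 200 kb of a window (grey). The Hox peaks reach percentile 30.8 at most, under the dashed line at the middle of a list, and 767 bp at most.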

How the data were processed

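The deposited data were peak lists, 1 for each of 4 H3K4me3 libraries, and 4 input libraries were not analysed here. The submitters' processing notes name MACS2 2.1.1.20160309, BWA 0.7.12-r1039, bedtools, SAMtools, Picard 2.6.0 and R 2.14.0, with build mm9. Their roles, thresholds and use of input are not given in the sources used here. The deposited score has no named scale and was used only to rank peaks within a list. Peak positions, deposited counted from 0, are given counted from 1. Peak numbers ran without a gap in every list.

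Depth is unknown, and higher depth or lower noise in a library cannot be told apart from more mark. No label ties a library to an animal, and p-values thus reflect only the spread among these libraries, which may be technical.

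Base pairs under peaks, their position and the number of peaks in each window were compared between genotypes by exact two-sided permutation tests with Python 3.11.15, numpy 2.4.6 and pandas 2.3.3. Peaks overlapping by at least 1 bp formed union regions. Log2 base pairs in regions with a peak in all 4 libraries, centred on the median of each library, were fitted with limma 3.58.1 in R 4.3.3. The fit used a variance trend and a Benjamini-Hochberg threshold of 0.05 over all regions. It was also run on simulated data, with changes larger than that of the HoxD region. Whether a change of that size would be called was not tested. All 6 Hox regions are named. The windows, genes and tests were chosen with earlier results of these data known, and flanks of 200 kb, tiles, gaps and promoter CG counts were added after the peaks were seen. The tiles ran end to end over the span of each chromosome's marked regions, without chromosome Y. Plots used matplotlib 3.10.9.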

Additional observations from a re-analysis of the deposited data

How the results depend on the processing

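HoxB and HoxC had 0 bp under peaks under every alternative run, so no share by position could be given for them, and none for HoxA or HoxD with peaks under 500 bp left out, where dKO had no marked base pairs. With a library left out, the difference (dKO minus WT) ran from -859 to 308 bp for the 4 clusters, -757.5 to 251.5 bp for HoxA, -101.5 to 56.5 bp for HoxD, -0.00316 to 0.00207 percentage points for the share of library base pairs, -0.5 to 1.5 for the number of peaks (0.5 with all libraries) and -22.5 to 11.2 percentage points for the share of HoxA between its 3′ end and middle. The sign turned without WT replicate 2 for all base-pair values, without dKO replicate 2 for HoxD and the library share, without WT replicate 1 for the number of peaks, and without WT replicate 1 or dKO replicate 1 for the position in HoxA. The position difference in HoxD kept its sign with a library left out, from -39.3 to -30.7 points, and was -23.5 points with windows widened by 10 kb.

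With lists of equal length the share of library base pairs turned to 0.000207 percentage points (-0.000541 otherwise), the difference shrank from -275.5 to -84 bp for the 4 clusters, from -253 to -61.5 bp for HoxA and from -5.65 to -0.69 points for the position in HoxA, and the count of regions marked only in both WT libraries fell from 1 to 0. Leaving out peaks under 500 bp turned the difference in number to -1.5 peaks. It moved that in base pairs to -980.5 bp for all clusters and from -22.5 to -688 bp for HoxD. That in library share became -0.00503 percentage points (exact permutation p = 0.3333 and no overlap for each). The HoxD region at 8.83 kb was then WT only as its dKO peaks were cut. Other regions were not compared. Regions marked only in dKO numbered 0, and 0 to 1 with a library left out. No Hox region was called wider or narrower by limma in any alternative, and with peaks under 500 bp left out none could be fitted. The log2 width change of the HoxD region was -0.67 without centring, -0.41 with quantile normalization, -0.52 with the replicate number as a block (adjusted p = 0.684) and -0.65 to -0.40 with a library left out. The adjusted p ran from 0.397 to 0.972 over these. Same-numbered libraries share only a number (correlation of their deviations -0.059 over 14943 regions); the replicate block called 0 Hox regions.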
